A study of Mus musculus with 50 samples.

Results

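Regulators of G protein signalling (RGS proteins) are encoded by the Rgs genes, and 8 of them that are measured in mouse CD8+ T cells are described here: Rgs1, Rgs2, Rgs3, Rgs10, Rgs14, Rgs16, Rgs18 and Rgs19. They were chosen by symbol, by matching each Ensembl identifier of the count table to the mouse annotation, and they are 8 of 21647 genes in the table. All 8 passed the filter on low counts, which 13294 genes passed in all. Over all libraries they were covered by between 913 reads (Rgs18) and 348296 reads (Rgs16).

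CD8+ T cells were taken from the spleens of 10-week-old mice on a background labelled C567BL/6J with magnetic anti-CD8a beads. They were cultured with plate-coated anti-CD3e and soluble anti-CD28, antibodies that engage the antigen receptor complex and the costimulatory receptor CD28. The mice were wild type (WT) or knockout mice (KO), 5 of each genotype. RNA from each mouse was sequenced at 0, 2, 6, 12 and 24 h, which gives 10 groups of 5 libraries and 50 libraries in all. The 0 h cells were not activated, and every later group of both genotypes received the same 2 antibodies. No culture without antibodies at 2 to 24 h was analysed here, so time in culture and activation cannot be told apart.

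An RGS protein binds an active G alpha subunit and speeds the hydrolysis of its GTP, which ends the signal of a G protein-coupled receptor. In T cells the receptors concerned include the chemokine receptors, which signal mainly through Gi, and the lipid receptor S1pr1, which T cells use to leave lymphoid organs. Rgs1, Rgs2, Rgs3, Rgs16 and Rgs18 belong to the subfamily of mostly small proteins built around the RGS domain, Rgs10 and Rgs14 belong to another subfamily, and Rgs19, also known as GAIP, belongs to the RZ subfamily.

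Rgs1, Rgs2, Rgs16 and Rgs18 lie on chromosome 1 (build GRCm38). Rgs2 spans chr1:143999338-144004161 on the minus strand, Rgs1 spans chr1:144242296-144249242 on the minus strand, Rgs18 spans chr1:144752683-144775435 on the minus strand, and Rgs16 spans chr1:153740349-153745468 on the plus strand. The other members are Rgs19 at chr2:181688419-181693977 (minus), Rgs3 at chr4:62559847-62704001 (plus), Rgs10 at chr7:128373621-128418758 (minus) and Rgs14 at chr13:55369732-55384687 (plus).

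The sequences just upstream of Rgs16 and Rgs2 are shown because both genes were among the members that rose within 2 h of culture in both genotypes. They come from the RefSeq promoter table of GRCm38.p6, which matched 5 of the 8 members (Rgs2, Rgs3, Rgs10, Rgs16 and Rgs19), and are written 5′ to 3′ on the strand of the gene up to the base before the first exon of the gene's annotation. Capitals mark the CCAAT box (CCAAT), the GC box (GGGCGG) and the core of the cyclic AMP response element (TGACG), each read on either strand. The Rgs16 stretch is chr1:153740103-153740348 and the Rgs2 stretch is chr1:144004162-144004399.
Rgs16: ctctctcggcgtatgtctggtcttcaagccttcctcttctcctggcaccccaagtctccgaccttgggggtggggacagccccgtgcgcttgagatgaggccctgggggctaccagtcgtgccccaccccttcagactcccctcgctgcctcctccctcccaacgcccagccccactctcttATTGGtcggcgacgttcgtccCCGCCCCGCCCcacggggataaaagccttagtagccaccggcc
Rgs2: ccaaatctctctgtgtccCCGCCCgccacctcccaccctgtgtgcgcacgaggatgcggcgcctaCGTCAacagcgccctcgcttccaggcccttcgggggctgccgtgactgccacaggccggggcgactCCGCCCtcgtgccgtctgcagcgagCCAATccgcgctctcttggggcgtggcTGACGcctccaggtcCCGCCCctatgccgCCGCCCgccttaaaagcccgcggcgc

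Each of these stretches holds 1 CCAAT box, at position -68 in Rgs16 and at position -94 in Rgs2. Positions are counted from the RefSeq start, which lies a few bases past the end of each printed stretch. Of 32851 promoters, 33.8% hold at least 1 CCAAT box in the 250 bases before the start, the window used for all shares here. The GC box occurs 2 times in Rgs16, as overlapping copies, and 4 times in Rgs2, against 32.7% of promoters with at least 1. The core TGACG occurs 2 times in Rgs2 and 0 times in Rgs16, and 17.8% of promoters hold it. The AP-1 site (TGACTCA), the full cyclic AMP response element (TGACGTCA) and the NFAT core (GGAAA) have 0 matches in either window and are held by 4.46%, 1.55% and 55.6% of promoters. The window of Rgs10, a gene whose level was lower at 24 h than at 0 h in both genotypes, holds 2 GC boxes and 0 CCAAT boxes. In the 3′ UTR, the letters ATTTA occur 10 times in Rgs1, 5 times in Rgs2, 4 times in Rgs16, 5 times in Rgs18, 2 times in Rgs3 and 1 time in Rgs19, and 0 times in Rgs10 and Rgs14, while 60.8% of 20878 genes hold at least 1. These matches describe letters only.

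Library totals ran from 9571625 to 31293872 counts with a median of 23548632. Some WT libraries stood apart. The 10 libraries of WT mice 1 and 4 had a summed level of immature thymocyte markers of 1560 to 1970 CPM (counts scaled to the TMM-adjusted library total) at 0 h, against 242 to 453 CPM in the other 8 mice, and a summed level of G2 and mitosis genes of 4750 to 5900 CPM, against 93.9 to 1030 CPM. They also stood apart at 6 h, with 4320 to 5870 CPM of the G2 and mitosis genes against 71 to 312 CPM. The 0 h library of WT mouse 3 had 23.8% of its counts in its top 50 genes, against 8.83% to 14.8% in the other 0 h libraries, and the summed level of T cell markers there was 18000 CPM. Values without these libraries stand beside the results of the members, and the part these marker levels had in the results was not tested. In bulk RNA, fewer cells of a type and less RNA per cell cannot be told apart.

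Over the hours of culture, Rgs1 and Rgs16 rose and Rgs14 fell at every later time in both genotypes. Rgs2 rose at 2 h in both, and Rgs10 was lower at 24 h in both. When only the libraries compared were fitted, the WT rises at 2 h lost their call for Rgs1 (3.17, adjusted p = 0.103) and Rgs16 (5.38, adjusted p = 0.0548). In WT mice, 3 of the 8 members were higher and 2 lower at 2 h than at 0 h by edgeR's quasi-likelihood test at a Benjamini-Hochberg adjusted p under 0.05, beside 14% and 16.2% of all genes tested. At 6 h 4 were higher and 2 lower, beside 20.2% and 19.7%. The 12 h libraries gave 3 higher and 1 lower, beside 19.3% and 20.2%, and the 24 h libraries gave 3 higher and 2 lower, beside 19.9% and 24.2%. Among KO mice the counts were 3 higher and 1 lower at 2 h, beside 20.3% and 19.6% of all genes, then 3 and 2 at 6 h, beside 26.8% and 22.4%. They were 3 and 3 at 12 h, beside 27.8% and 25%, and 2 and 3 at 24 h, beside 30.7% and 28%. Later times of a genotype share their 0 h libraries, so the comparisons are not independent. Without WT mice 1 and 4, 6, 7, 7 and 7 of 8 members were called in WT mice at 2, 6, 12 and 24 h, beside 49.7%, 59.8%, 60.2% and 64.6% of all genes.

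**Figure D1:**
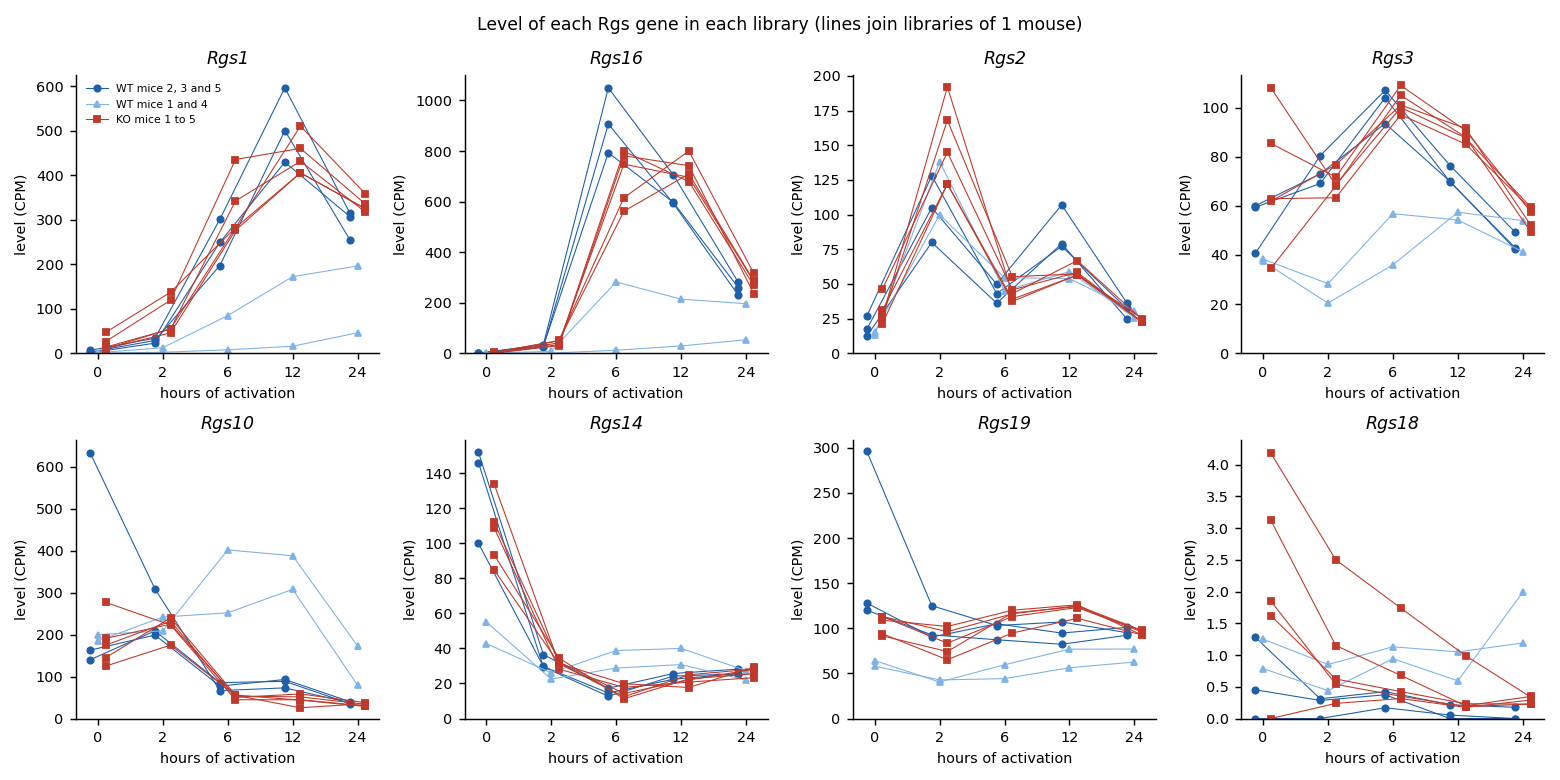
Level of each member in CPM (linear axes) against hours of culture, 1 point per library, with WT mice 2, 3 and 5, WT mice 1 and 4 and KO mice marked apart. Rgs1 and Rgs16 start low and rise least in WT mice 1 and 4 (11.9 CPM of Rgs16 at 6 h in WT mouse 1), and Rgs10 of WT mice 1 and 4 stays above that of the other mice from 6 to 24 h.

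Rgs16 acts on Gi and Gq subunits and is known as a gene of activated lymphocytes. At 0 h its level in WT mice 1 to 5 was 0.102, 0.711, 0, 0.143 and 1.32 CPM, from 63 reads in the 5 libraries, and in KO mice 1 to 5 it was 2.45, 0.83, 0, 0.323 and 3.61 CPM, from 184 reads. A count of 0 in the libraries of mouse 3 allows up to 0.289 CPM in WT and 0.217 CPM in KO (3 counts, covering counting error only). The 6 h level of Rgs16 was 11.9, 907, 1050, 282 and 793 CPM in WT mice and 615, 799, 781, 748 and 562 CPM in KO mice. All 10 libraries were above every 0 h library, and WT mice 1 and 4 were the lowest of the 10. The rise from 0 h in WT mice was 5.27 on the log2 scale at 2 h (adjusted p = 2.6e-05), 10.26 at 6 h (1.38e-09), 9.75 at 12 h (3.91e-09) and 8.68 at 24 h (1.93e-08), or 5.18, 10.15, 9.57 and 8.32 without WT mice 1 and 4. In KO mice the rises were 4.77, 8.87, 8.92 and 7.53, with adjusted p of 2.16e-05, 4.4e-09, 4.85e-09 and 3.36e-08. Those 0 h levels rest on few reads, so the folds at the later times depend on how the fit treats low counts.

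The Rgs16 level was lower at 24 h than at 12 h in every mouse but WT mouse 1. At 12 h WT mice had 28.9, 593, 706, 214 and 597 CPM and KO mice had 800, 679, 742, 696 and 709 CPM. By 24 h WT mice had 53.2, 230, 281, 196 and 260 CPM and KO mice had 316, 268, 236, 284 and 287 CPM. The 12 and 24 h libraries of KO mice did not overlap. The change from 12 to 24 h was -1.07 in WT mice (adjusted p = 0.342) and -1.38 in KO mice (adjusted p = 0.241), and it passed without WT mice 1 and 4, at -1.25 (adjusted p = 0.0138) and -1.37 (adjusted p = 0.000792).

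Rgs1 acts on Gi and Gq subunits and is known from activated and tissue-resident lymphocytes. At 0 h WT mice 1 to 5 had 0.239, 2.46, 0.867, 1.22 and 6.45 CPM, and KO mice 1 to 5 had 46.7, 10, 13.6, 9.6 and 26.2 CPM. Every KO library was above every WT library. By 12 h WT mice reached 15.7, 500, 429, 172 and 596 CPM and KO mice reached 510, 405, 431, 405 and 460 CPM. The genotypes overlapped there, and WT mice 1 and 4 were the lowest libraries of that hour. At 24 h the WT libraries held 46, 255, 307, 196 and 315 CPM and the KO libraries 358, 324, 317, 325 and 335 CPM. In WT mice the rise over 0 h was 3.12 on the log2 scale at 2 h (adjusted p = 0.00121), 6.19 at 6 h (1.9e-07), 7.22 at 12 h (2.68e-08) and 6.61 at 24 h (9.04e-08), or 3.02, 6.15, 7.14 and 6.39 without WT mice 1 and 4. KO mice gave 1.95 (adjusted p = 0.021), 3.93 (3.09e-05), 4.38 (7.34e-06) and 3.96 (2.12e-05) from a higher start. The KO rise at 2 h lost its call without KO mouse 2, 3, 4 or 5, with adjusted p up to 0.0738.

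Rgs2 acts mainly on Gq and is a small regulator of receptor signals that is known to be induced early. At 0 h WT mice 1 to 5 had 15.4, 12.4, 26.9, 13.2 and 17.4 CPM and KO mice 1 to 5 had 26.2, 31, 46.2, 21.3 and 26 CPM. At 2 h WT mice had 99.8, 79.9, 128, 138 and 105 CPM and KO mice had 192, 122, 145, 122 and 168 CPM, so each 2 h library was above all 0 h libraries. By 6 h WT mice had 54.5, 36.1, 43, 45 and 49.8 CPM and KO mice had 43, 37.4, 45.7, 39 and 55.2 CPM, all below the 2 h libraries. The levels at 12 h were 53.8, 79, 77.1, 58.9 and 107 CPM in WT mice and 66.8, 56.5, 58.3, 56.3 and 57.2 CPM in KO mice.

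The rise of Rgs2 over 0 h at 2 h was 2.70 on the log2 scale in WT mice (SE 0.202, adjusted p = 1.1e-13), or 2.47 without WT mice 1 and 4, and 2.31 in KO mice (adjusted p = 2.89e-12). The step from 2 to 6 h was -1.27 in WT mice (adjusted p = 2.72e-06) and -1.76 in KO mice (adjusted p = 1.41e-09), and the step from 12 to 24 h was -1.32 (1.11e-05) and -1.34 (3.83e-05). At 24 h it remained above 0 h in WT mice by 0.82 (adjusted p = 0.000603), or by 0.74 without WT mice 1 and 4 (adjusted p = 0.00647). That call was lost when only the libraries compared were fitted, at 0.72 (adjusted p = 0.0775). In KO mice the 24 h value was -0.37 from 0 h, which was not called by edgeR and was called by DESeq2 at -0.48 (adjusted p = 0.0281). The KO rise at 6 h, 0.55 (adjusted p = 0.0154), lost its call with library totals in place of TMM scaling, at 0.39 (adjusted p = 0.0667), and without KO mouse 1, 4 or 5, down to 0.41 (adjusted p = 0.131).

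**Figure D2:**
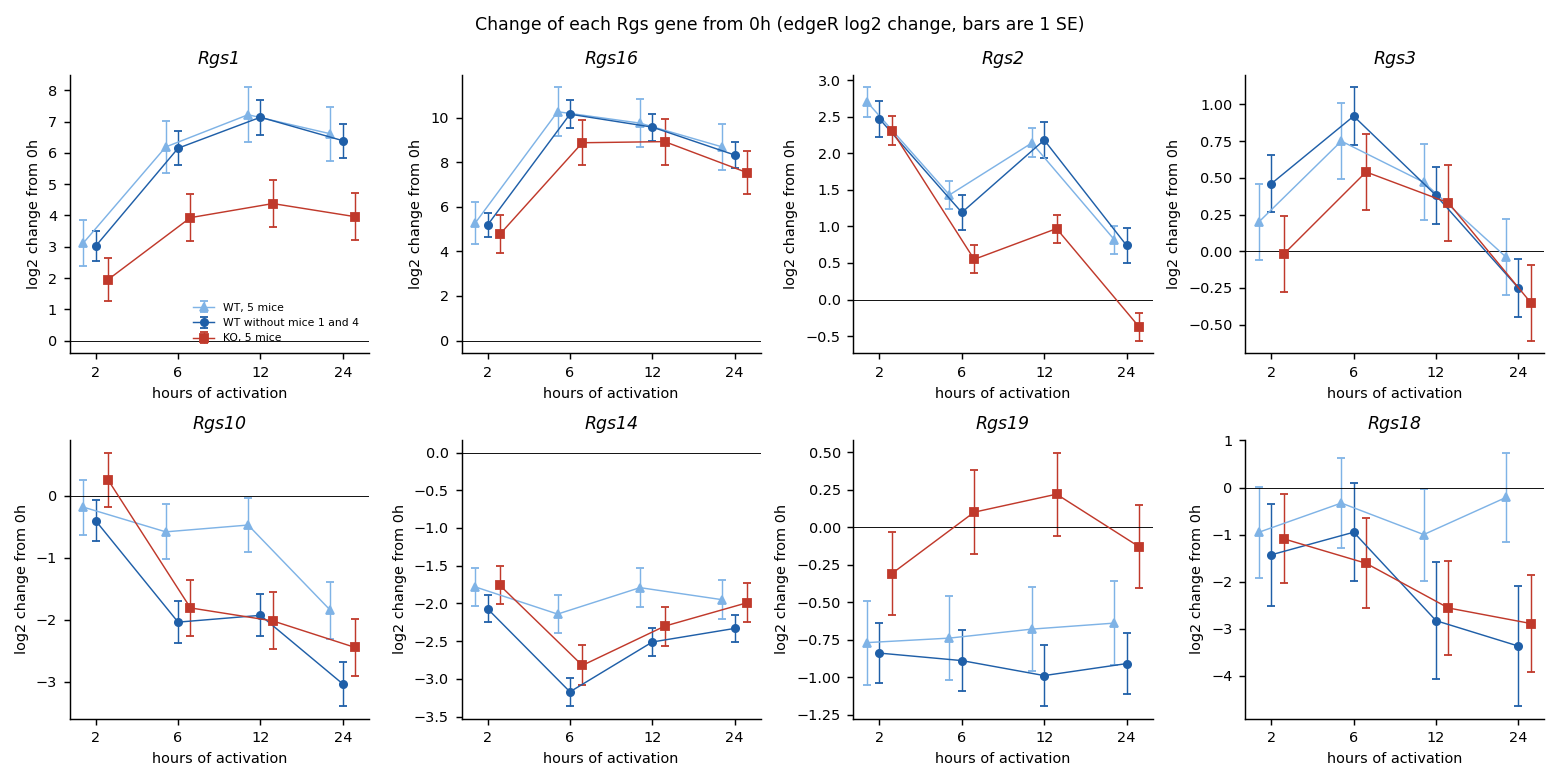
Difference from 0 h on the log2 scale (±1 SE) for each member, in all 5 WT mice, in WT mice without mice 1 and 4, and in KO mice. Rgs16 and Rgs1 rise at every later time, Rgs2 peaks at 2 h, and Rgs14 falls at every later time.

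Rgs3 acts on Gi and Gq and has long isoforms with further domains. At 6 h WT mice 1 to 5 had 36, 104, 107, 56.8 and 93.5 CPM against 37.4, 59.4, 40.6, 38.3 and 60 CPM at 0 h, and WT mice 1 and 4 again stood lowest. The rise in WT mice was 0.75 (SE 0.259, adjusted p = 0.0178) and was 0.92 without WT mice 1 and 4 (adjusted p = 0.000143). It lost its call without WT mouse 2 and without WT mouse 3, at 0.54 without WT mouse 3. KO mice had 100, 101, 105, 97.1 and 109 CPM at 6 h and 108, 61.9, 34.5, 62.9 and 85.4 CPM at 0 h, a difference of 0.54 that did not pass (adjusted p = 0.0794) and was 0.58 with the mouse as a block (adjusted p = 0.0216).

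Rgs18, a regulator known from platelets and megakaryocytes, was at the edge of detection. In KO mice 1 to 5 it was 3.12, 1.62, 0, 1.85 and 4.18 CPM at 0 h and 0.348, 0.228, 0.291, 0.227 and 0.338 CPM at 24 h. WT mice had 0.786, 0.453, 0, 1.25 and 1.28 CPM at 0 h and 1.99, 0, 0, 1.19 and 0.177 CPM at 24 h. In KO mice the change was -2.56 at 12 h (adjusted p = 0.029) and -2.89 at 24 h (adjusted p = 0.0146), and these calls were lost without KO mouse 1, 2 or 4 at 12 h and without KO mouse 1 or 5 at 24 h. The 24 h libraries of WT mice 1 and 4 were the highest of the 10 and those of WT mice 2 and 3 held 0 reads, which allows up to 0.102 and 0.131 CPM. Leaving out WT mice 1 and 4, the change in WT mice was -3.37 at 24 h (adjusted p = 0.0205). The summed level of megakaryocyte and platelet markers at 0 h ran from 73.8 to 149 CPM in KO mice and from 27.5 to 175 CPM in WT mice, over 10 measured markers. Of these, Gp6 had 0 reads at 0 h in KO and in WT mice. In WT mice 2, 3 and 5, Ppbp also had 0 reads at 0 h, and Gp9 and Treml1 had 0 reads at 24 h. At 24 h WT mice 1 and 4 had 51.5 to 121 CPM of these markers where the other mice had 10.2 to 16.4 CPM, and their part in these values was not tested.

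Rgs10, a small protein that acts on Gi subunits, was the member with the highest level per length at 0 h. At 0 h WT mice 1 to 5 had 200, 140, 634, 185 and 163 CPM and KO mice 1 to 5 had 145, 175, 277, 191 and 125 CPM. By 6 h WT mice had 402, 85.6, 66.5, 252 and 77.4 CPM and KO mice had 55.9, 50.3, 44.8, 53.3 and 55.3 CPM, so that WT mice 1 and 4 were above their own 0 h level and the other 8 mice below it. At 24 h the WT libraries held 173, 35.7, 37.7, 79.3 and 40.3 CPM and the KO libraries 28.9, 38, 30, 34 and 35.6 CPM.

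In KO mice Rgs10 was lower than at 0 h, by -1.81 on the log2 scale at 6 h (adjusted p = 0.00105), -2.02 at 12 h (0.000307) and -2.45 at 24 h (2.52e-05). In all 5 WT mice the fall passed at 24 h, at -1.85 (adjusted p = 0.00109), and not at 6 h (-0.58, adjusted p = 0.32) or 12 h (-0.47, adjusted p = 0.419). Once WT mice 1 and 4 were left out it was -2.04, -1.93 and -3.04 at these hours, with adjusted p of 3.64e-06, 8.41e-06 and 3.66e-09. Leaving out the 0 h library of WT mouse 3 as well gave -1.03 (adjusted p = 0.000271), -0.87 (adjusted p = 0.0015) and -2.02 (adjusted p = 3.35e-09). Leaving out that library alone gave -1.23 at 24 h (adjusted p = 0.0201).

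Rgs14 acts on Gi subunits and also binds Ras and inactive G alpha subunits. At 0 h WT mice 1 to 5 had 42.8, 152, 100, 55.2 and 146 CPM and KO mice 1 to 5 had 109, 134, 93.5, 112 and 84.9 CPM. By 6 h the level was 38.8, 17.3, 14.6, 28.8 and 12.7 CPM in WT mice and 17.8, 12.4, 11.3, 14.3 and 19.9 CPM in KO mice. WT mice 1 and 4 were the lowest libraries at 0 h and the highest at 6 h. The fall was -1.78 in WT mice (adjusted p = 7.04e-07) and -1.76 in KO mice (adjusted p = 4.01e-07) at 2 h. At 6 h it was -2.14 and -2.82, at 12 h it was -1.79 and -2.30, and at 24 h it was -1.95 and -1.99 in WT and KO mice. Leaving out WT mice 1 and 4, the WT values were -2.07, -3.17, -2.51 and -2.33.

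Rgs19, which acts on Gi subunits and is found on membranes, ranged from 65.1 to 126 CPM over the libraries of KO mice and passed at no time there with all mice. WT mice 1 to 5 had 58, 128, 296, 64.3 and 120 CPM at 0 h and 42.8, 90.3, 125, 40.4 and 92.7 CPM at 2 h, with mouse 3 highest and mice 1 and 4 lowest at 0 h. The change in WT mice was -0.77 at 2 h (adjusted p = 0.0322) and -0.74 at 6 h (adjusted p = 0.0315), counted above among the members that were lower. Both calls were lost without the 0 h library of WT mouse 3, at -0.26 (adjusted p = 0.476) and -0.23 (adjusted p = 0.488). With the mouse as a block, Rgs19 in WT mice also fell at 12 h (-0.49, adjusted p = 0.0125) and 24 h (-0.43, adjusted p = 0.0242). WT mice 1 to 5 had 56.3, 94.7, 107, 76.9 and 82.3 CPM at 12 h. The levels at 24 h were 62.6, 101, 95.2, 77 and 92.2 CPM. WT mouse 4 was thus above its own 0 h level at both times, and WT mouse 1 at 24 h. The block was not fitted without the 0 h library of WT mouse 3.

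KO mice were compared with WT mice at each time. Counted by edgeR, 2 of 8 members were higher and 0 lower in KO mice at 0 h, beside 2.34% and 5.59% of all genes. The counts were 1 higher and 0 lower at 2 h, beside 2.9% and 8.9%, 0 and 1 at 6 h, beside 2.53% and 7.59%, and 0 and 1 at 12 h, beside 5.54% and 7.55%. At 24 h 0 of 8 were called by edgeR, beside 0.0451% of all genes in either direction. There 1 member (Rgs10) had an unadjusted p under 0.05, and DESeq2 and limma also called 0. The median over all genes at 0 h was -0.15 and was -0.01 with library totals, where 67.3% of the genes called were higher in KO mice against 29.5% with TMM scaling. Without WT mice 1 and 4, 4, 1, 0, 1 and 0 of 8 members were called from 0 to 24 h, beside 22.4%, 4.1%, 4.16%, 23% and 0.0453% of all genes. The 40 residual degrees of freedom treat libraries of the same mouse as independent.

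**Figure D3:**
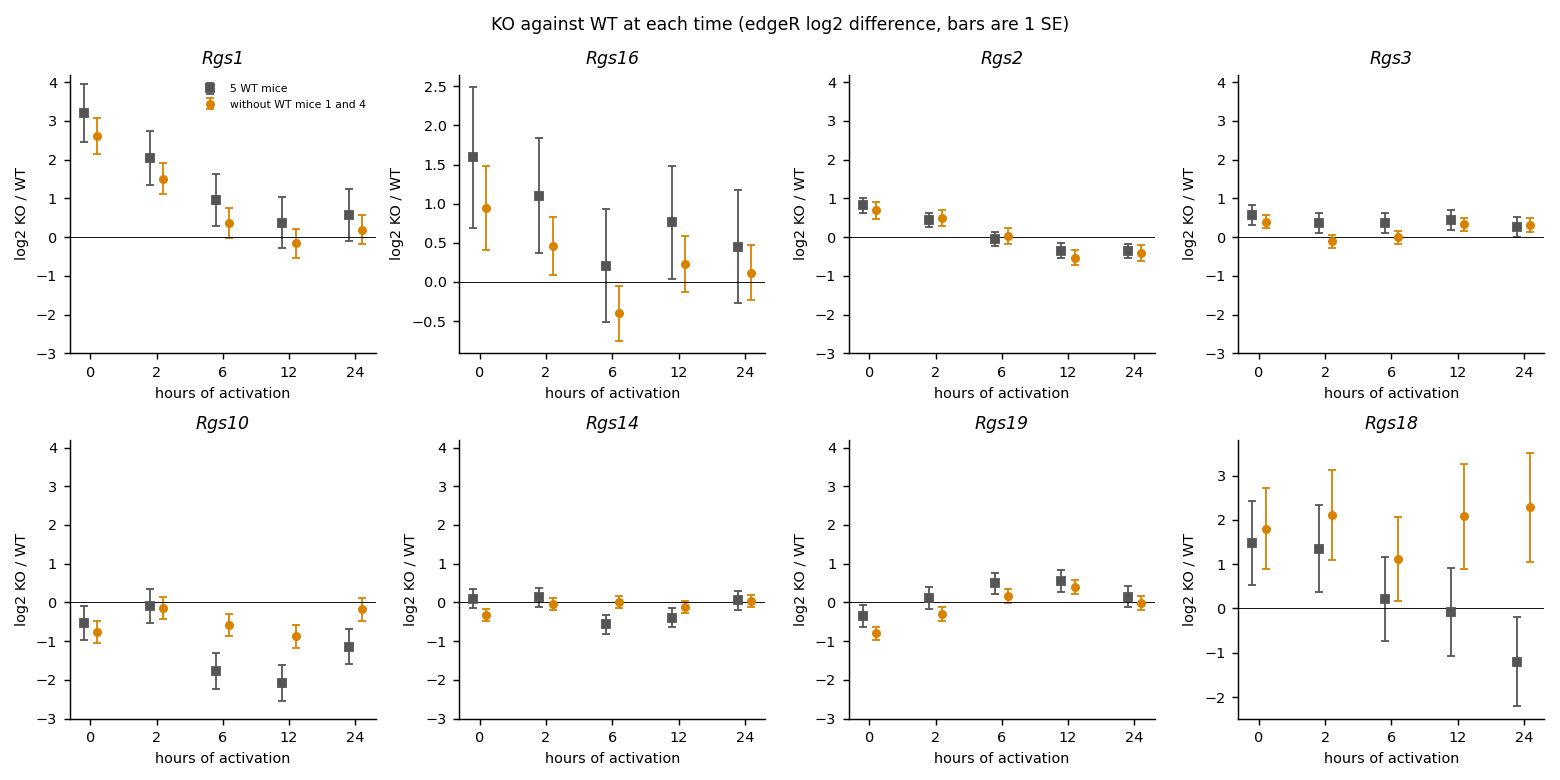
Difference of KO from WT mice on the log2 scale (±1 SE) at each time for each member, with all mice and without WT mice 1 and 4 (Rgs16 and Rgs18 have their own axes). The Rgs1 difference is largest at 0 h, at 3.21, and the Rgs10 difference at 6 and 12 h is smaller without WT mice 1 and 4.

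Rgs1 was higher in KO mice at 0 h by 3.21 on the log2 scale (SE 0.745, adjusted p = 0.00984, a 9.25-fold difference), and at 2 h by 2.05 (adjusted p = 0.046, 4.13-fold). At 2 h the levels were 2.23, 28.7, 22.7, 12.4 and 33.7 CPM in WT mice and 137, 45.8, 54.4, 55 and 119 CPM in KO mice. The groups did not overlap at either time. Leaving out WT mice 1 and 4 gave 2.61 (adjusted p = 0.000398, 6.11-fold) and 1.51 (adjusted p = 0.0281). The 0 h call was lost without KO mouse 1 (2.68, adjusted p = 0.0676), and with the mouse as a random block (3.63, adjusted p = 0.0675). The 2 h call was lost in 7 of the 10 fits that leave out 1 mouse. Beside it, the summed level of B cell markers at 0 h was 116, 97.4, 367, 80.4 and 99.8 CPM in KO mice and 9.84, 113, 244, 14 and 35.1 CPM in WT mice, over 8 measured markers with none at 0. Dendritic cell markers summed to 8.1 to 40.7 CPM in KO and 6.94 to 11.8 CPM in WT mice. Myeloid markers summed to 76.7 to 181 and 45 to 99.1 CPM, and erythroid markers to 38.5 to 116 and 14.3 to 221 CPM. The part of these marker levels in the Rgs1 difference was not tested.

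Rgs2 was higher in KO mice at 0 h by 0.82 (SE 0.192, adjusted p = 0.00998, 1.77-fold), with overlapping groups because WT mouse 3 stood at 26.9 CPM. The difference was 0.69 without WT mice 1 and 4 (adjusted p = 0.0213), and the call was lost without KO mouse 3, at 0.61 (adjusted p = 0.0691). When only the libraries compared were fitted, the calls of Rgs1 and Rgs2 at 0 h were both lost, with an adjusted p of 0.554 each, and so were those of Rgs1 at 2 h (adjusted p = 0.191) and Rgs10 at 6 h (adjusted p = 0.0882).

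Rgs10 was lower in KO mice, by -1.77 at 6 h (adjusted p = 0.0184) and -2.08 at 12 h (adjusted p = 0.0042). At 12 h WT mice 1 to 5 had 388, 88.7, 73.1, 308 and 93.1 CPM and KO mice 1 to 5 had 43.8, 58.6, 44.8, 51.6 and 25.7 CPM. The genotypes did not overlap at 6 or 12 h, and WT mice 1 and 4 were the highest. Without these mice the difference was -0.58 at 6 h (adjusted p = 0.268), which lost its call in that fit, and -0.88 at 12 h (adjusted p = 0.0252). The 6 h call passed when the 0 h library of WT mouse 3 was left out as well. It was lost in 6 of the 10 fits that leave out 1 mouse, with adjusted p up to 0.0973. The other 5 members did not pass at any time with all mice. Without WT mice 1 and 4, Rgs19 at 0 h was -0.80 (adjusted p = 0.00231) and Rgs10 at 0 h was -0.77 (adjusted p = 0.0495), and without the 0 h library of WT mouse 3 as well these were -0.28 (adjusted p = 0.125) and 0.24 (adjusted p = 0.45).

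The difference between genotypes in the change from 0 h was tested as an interaction. With edgeR, 0 of 8 members differed at 2 h, beside 0.015% of all genes, and 0 had an unadjusted p under 0.05. At 6 h 0 were called, beside 2.47%, and 3 had an unadjusted p under 0.05 (Rgs1, Rgs2 and Rgs19). At 12 h 1 was called, beside 7.5%, and at 24 h 0, beside 0.0752%, with 2 under an unadjusted 0.05 (Rgs1 and Rgs2). DESeq2 called 0, 1, 2 and 1 at these hours and limma called 0, 1, 1 and 1. Without WT mice 1 and 4 edgeR called 0, 2, 3 and 1, beside 0.264%, 9.56%, 20.5% and 0.86% of all genes. The member called at 12 h was Rgs2, whose rise was smaller in KO mice, by -1.17 (SE 0.27, adjusted p = 0.00475), or by -1.22 without WT mice 1 and 4 (adjusted p = 0.00327). That call was lost when only the groups compared were fitted, at -1.15 (adjusted p = 0.0702). Its 12 h groups overlap, and its 0 h level was the higher one in KO mice.

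With the mouse as a fixed block, which compares each mouse with its own 0 h library, 7 differences passed where 1 passed without it. The share of all genes called with the block is not given here. The larger count alone does not show a gain particular to the members. The rise of Rgs1 was smaller in KO mice, by -1.98 at 6 h (adjusted p = 0.0122), -2.56 at 12 h (0.000442) and -2.87 at 24 h (0.00152), against -2.26, -2.84 and -2.64 without the block, which did not pass (adjusted p = 0.205, 0.0635 and 0.258). Rgs2 differed by -0.90 at 6 h (adjusted p = 0.0267) and by -1.19 at 24 h (adjusted p = 0.0161), and Rgs19 by 0.71 at 12 h (adjusted p = 0.033). The 0 h library of WT mouse 3, with Rgs19 at 296 CPM, is part of this fit. Leaving out WT mice 1 and 4, the Rgs1 differences were -2.25, -2.77 and -2.42, with adjusted p of 0.0132, 0.000778 and 0.0328. These values and the 0 h difference of KO from WT mice rest on the same 0 h libraries.

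From 2 to 6 h Rgs16 rose by 4.99 in WT mice (adjusted p = 1.82e-05), or by 4.97 once mice 1 and 4 were left out, and the KO rise was 4.1 (adjusted p = 6.37e-05). From 6 to 12 h the Rgs2 step was 0.72 in WT mice (adjusted p = 0.0593), which was 0.99 and passed without WT mice 1 and 4 (adjusted p = 0.00196), and 0.42 in KO mice (adjusted p = 0.243). In WT mice 3 of 8 members changed from 2 to 6 h, beside 29.3% of all genes, and 2 from 12 to 24 h, beside 15.1%. In KO mice 5 changed from 2 to 6 h, beside 43.2%, and 1 from 12 to 24 h, beside 10%. From 6 to 12 h edgeR called 0 in either genotype, beside 0.609% in WT and 2.86% in KO mice. An unadjusted p under 0.05 was seen there for 1 member in WT mice (Rgs2) and 2 in KO mice (Rgs2 and Rgs14), DESeq2 called 1 and 0, and limma called 1 and 0.

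Levels per length (RPKM, CPM per kilobase of the principal transcript) set the members side by side, and their order depends on the length used. Counts are per gene, and the merged exons of some members are much longer than the principal transcript. The lengths are 6947 against 3841 bases for Rgs1, 10801 against 3888 for Rgs3, 1711 against 880 for Rgs10 and 4239 against 2356 for Rgs14. The order with merged lengths was not tested, and members with near levels may change places. Among these are Rgs3, Rgs14 and Rgs2 in KO mice at 24 h, and Rgs1 and Rgs19 in KO mice at 6 h. At 0 h Rgs10 was first at 300 ± 236 RPKM in WT mice and 207 ± 66.7 in KO mice (SD, n = 5), followed by Rgs19 at 88.3 ± 63.8 and 69 ± 7.06 and by Rgs14 at 42.1 ± 21.3 and 45.3 ± 8.02. The ranges of Rgs10 and Rgs19 did not overlap in KO mice and did in WT mice. At 6 h Rgs16 was first in KO mice at 300 ± 45.3 RPKM, clear of Rgs1 at 84.2 ± 17.7, Rgs19 at 74 ± 6.53 and Rgs10 at 59 ± 5.13, whose ranges overlapped from one to the next. By 24 h the KO order was Rgs16 at 119 ± 12.5, Rgs1 at 86.4 ± 4.23, Rgs19 at 62.9 ± 1.65, Rgs10 at 37.9 ± 4.32, Rgs3 at 14.3 ± 1.13, Rgs14 at 11.4 ± 1.02, Rgs2 at 7.74 ± 0.405 and Rgs18 at 0.141 ± 0.0285. With the principal lengths there was no overlap between neighbours. In all 5 WT mice at 12 h Rgs10 at 216 ± 167 RPKM and Rgs16 at 183 ± 124 overlapped, and in WT mice 2, 3 and 5 Rgs16 was first at 270 ± 27.5 RPKM (n = 3).

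**Figure D4:**
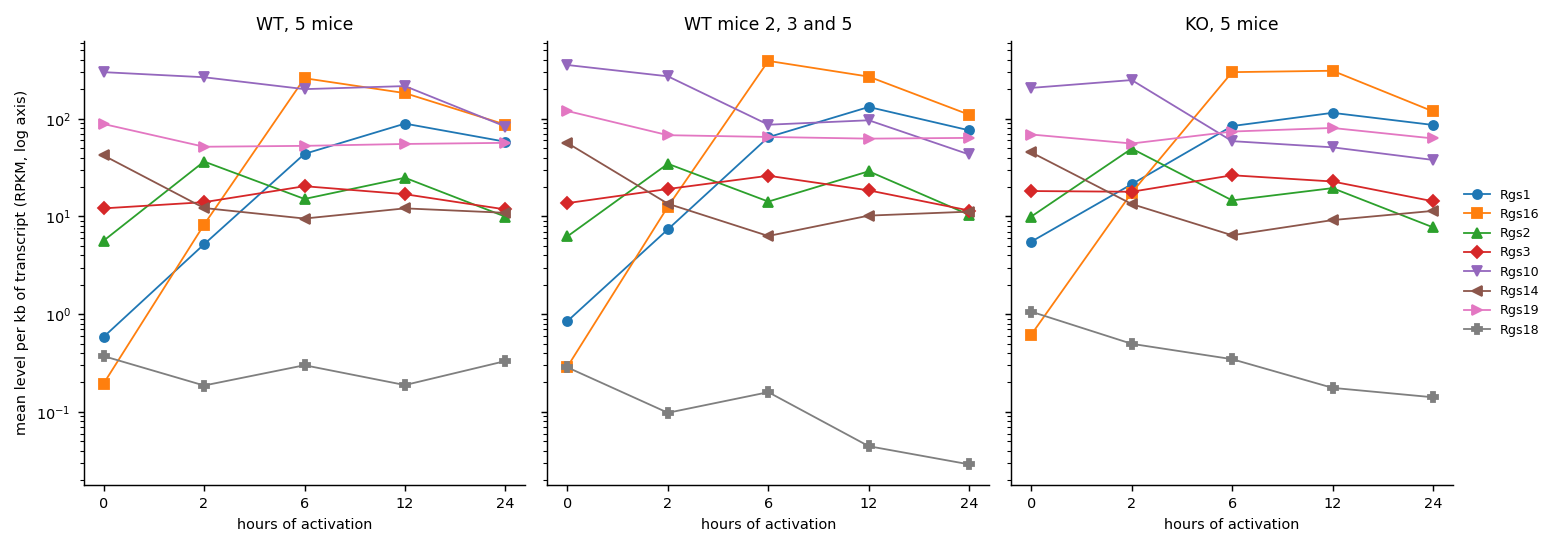
Mean level per length (RPKM, log axis) of the 8 members against hours of culture, in 3 panels for all WT mice, WT mice 2, 3 and 5, and KO mice. Rgs10 is first at 0 and 2 h, Rgs16 is first from 6 to 24 h in KO mice and in WT mice 2, 3 and 5, and Rgs18 stays lowest from 2 h on.

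Across the 50 libraries, as a description, the log2 levels of Rgs1 and Rgs16 correlated by 0.93 (0.935 over the 40 libraries without WT mice 1 and 4), those of Rgs14 and Rgs16 by -0.83 (-0.925), and those of Rgs1 and Rgs10 by -0.742 (-0.806). The libraries share mice and hours, so the points are not independent. The genes most like Rgs16 were Ccl3 (0.97) and Ccl4 (0.966), which encode chemokines, and Npas4 (0.963). For Rgs1 they were Cish (0.95), which encodes a suppressor of cytokine signals, Ptger2 (0.944), a prostaglandin E2 receptor, and Ccl3 (0.943). Rgs14 was most like Arhgap9 (0.962), Entpd5 (0.959) and Mta3 (0.955), and Rgs10 was most like Ing4 (0.949), Frat2 (0.946) and Mxd4 (0.938). For Rgs19 they included Ccdc88b (0.935) and Selenow (0.895). Rgs3 was nearest to Fyn (0.895), which encodes a kinase of the antigen receptor, Rhbdf2 (0.841) and Stat6 (0.836). The nearest to Rgs2 were Bcl2l11 (0.85), which encodes the death protein Bim, Nsun4 (0.843) and Ubxn4 (0.841), and those to Rgs18 were Angpt1 (0.747), Tgm2 (0.729) and Muc13 (0.72). Over the 40 libraries the r of Rgs3 with Stat6 was 0.716 and that of Rgs18 with Tgm2 was 0.7, the lowest of these pairs.

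Genes around the RGS proteins were taken from lists of the pathway, and each is given as 24 h against 0 h. Beside the counts with all mice, 19.9% of all genes rose and 24.2% fell in WT mice and 30.7% rose and 28% fell in KO mice. Beside the WT counts without WT mice 1 and 4, 64.6% of all genes were called in either direction. The share for KO mice in that fit is not given here. Of 5 other Rgs genes tested, of 15 in the table, 2 rose and 1 fell in each genotype. Rgs11 changed by -2.84 in WT mice, or by -3.03 without mice 1 and 4, and by -2.63 in KO mice (adjusted p = 0.00208 with all WT mice and 0.00252 in KO mice).

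Among 31 receptors of T cells, 6 rose and 11 fell in WT mice (median -0.18, against -0.08 over all genes) and 4 rose and 17 fell in KO mice (median -1.03, against 0.02). Leaving out WT mice 1 and 4, the counts were 6 and 16 in WT mice (median -0.71) and 6 and 19 in KO mice (median -1.02). S1pr1 had a mean of 390 CPM at 0 h and 10.5 CPM at 24 h in WT mice, a change of -5.22 on the log2 scale (-5.97 without mice 1 and 4), and -5.5 in KO mice. S1pr5, another sphingosine 1-phosphate receptor, changed by -6.18 (-6.42) and -6.2, and Cx3cr1, a chemokine receptor, by -3.83 (-5.3) and -6.02. Ptger2 rose by 3.6 (3.29) and 2.52, and Ccr8, a chemokine receptor, rose by 7.5 (4.3) and 3.36, the value in brackets being that of WT mice without mice 1 and 4. Ccr8 had a mean of 0.0809 CPM in WT and 0.226 CPM in KO mice at 0 h, and 17.4 and 2.49 CPM at 24 h. S1pr5 had 0.0651 CPM in WT and 0.0485 CPM in KO mice at 24 h. Such low levels limit the folds of these 2 genes.

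Of 11 G alpha genes, 1 rose and 4 fell in WT mice and 2 rose and 2 fell in KO mice, and without WT mice 1 and 4 the counts were 4 and 4 in each genotype. Gnaq, which encodes Gq alpha, rose by 2.54 in WT mice, or 2.38 without mice 1 and 4, and by 1.66 in KO mice. Gna15 changed by -3.5, or -3.94 without those mice, and by -2.77. Of 12 beta and gamma genes, 5 rose and 2 fell in WT mice, or 7 and 2 without mice 1 and 4, and 5 rose and 1 fell in KO mice. Gngt2 was at -2.92, or -4.05 without those mice, and -2.87.

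Of 14 receptor kinases, arrestins and other regulators, 1 rose and 9 fell in WT mice (median -0.87) and 2 rose and 8 fell in KO mice (median -0.78). These counts were, without WT mice 1 and 4, 2 and 9, and 2 and 10. Gpsm3 changed by -2.63 in WT mice, or -3.8 without mice 1 and 4, and by -2.18 in KO mice, and Arrb1, an arrestin, by -1.52, or -2.09, and by -2.18. Of 24 effectors, 1 rose and 10 fell in WT mice, or 2 and 12 without mice 1 and 4, and 2 rose and 12 fell in KO mice, or 4 and 14. Adcy7, an adenylyl cyclase, was at -1.85 in WT mice, or -2.21 without mice 1 and 4, and at -2.11 in KO mice, and Pde4b, a cyclic AMP phosphodiesterase, was at -2.15, or -2.74, and at -2.37.

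Between genotypes, 5 of the 31 receptors were higher and 0 lower in KO mice at 0 h, beside 2.34% and 5.59% of all genes. Without WT mice 1 and 4, 6 were higher and 4 lower, beside 22.4% of all genes called in either direction. Cxcr3, the receptor of CXCL9 and CXCL10, had a mean of 93.1 CPM in KO and 11 CPM in WT mice at 0 h, a difference of 3.08 (adjusted p = 0.00371), and differed by 2.39 at 2 h. Ccr2 was higher at 0, 2 and 6 h (1.8, 1.66 and 1.54), and Cxcr5 (2.24 and 2.44) and F2r (1.71 and 1.42) at 0 and 2 h. Ptger4, a prostaglandin E2 receptor, was higher at 6 h by 0.83 and at 12 h by 0.49. Each of these receptor calls also passed without WT mice 1 and 4. Grk3, a receptor kinase, was higher at 0 and 2 h (1.75 and 1.85), of which the 2 h call was lost without WT mice 1 and 4 (adjusted p = 0.064). Gnb4, Ccr4, Ptgir, Lpar6 and Ric8b were lower in KO mice at 2 times each, and of these 10 calls only Gnb4 at 12 h (-1.99, or -0.66 without WT mice 1 and 4, adjusted p = 0.0229) passed without those mice.

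**Figure D5:**
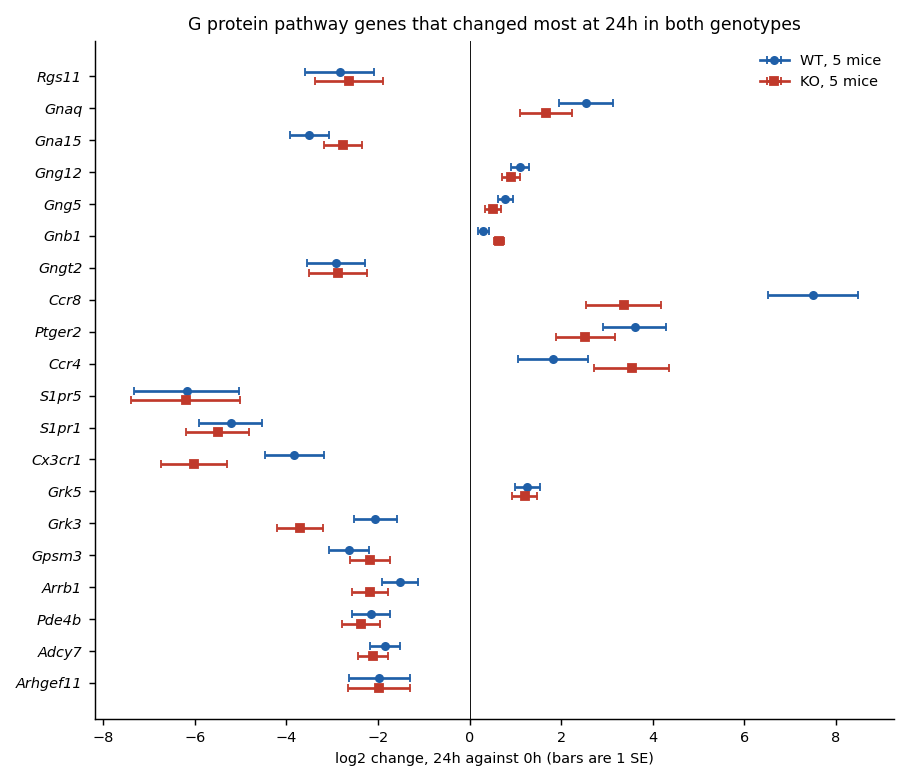
Change from 0 to 24 h on the log2 scale (±1 SE) of 20 named genes of G protein signalling in WT and KO mice. The receptors S1pr1 and S1pr5 lie lowest and Ccr8 lies highest in WT mice. Low levels of Ccr8 at 0 h and of S1pr5 at 24 h limit their folds.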

How the data were processed

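Stranded mRNA libraries of 50 samples were read as 50 nt single ends, per the labels. STAR 2.4, CASAVA 1.8.2, the build GRCm38 and featureCounts 1.4.6 are listed in the submitters' processing notes, while the annotation release, strand setting and treatment of reads with several matches are not given in the sources used here. The authors deposited raw counts per gene with no normalization, and only these counts were used. Without the strand setting, reads of Rgs16 and an overlapping antisense gene cannot be told apart. Genes were filtered with filterByExpr (minimum count 10, minimum total 15, smallest group 5), scaled by TMM and fitted with 1 quasi-likelihood model over all 50 libraries in edgeR 4.0.16 (R 4.3.3), with 1 mean per genotype and time. The common dispersion was 0.214 with 40 residual degrees of freedom, and genes with an adjusted p under 0.05 over all 13294 genes were called. CPM used the TMM-scaled totals. Levels per length used principal transcripts of the annotation. DESeq2 1.42.0 and limma 3.58.1 were alternatives, with other scalings, filters, blocks and libraries left out. The script was tested on simulated data. Mouse numbers were read from the labels as the same animal within a genotype. Deviations from group means correlated within a mouse by 0.317 to 0.783 on average in WT and 0.0765 to 0.421 in KO mice. Between genotypes the same number gave -0.0915 to 0.131. The WT values include mice 1 and 4, which stood apart, and different numbers within a genotype were not compared. Named genes followed a rule: the 8 members, the 3 most like genes of each by Pearson r of log2 CPM, up to 3 genes a list that rose and 3 that fell most at 24 h among those called in both genotypes, and list genes called in KO against WT at 2 or more times. Members and lists were chosen with earlier results of these data known. The gene that was knocked out, a check of it from the counts, and some genes this rule selects are not reported here.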

Additional observations from a re-analysis of the deposited data

Results flagged for a closer look

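In 7 of 80 groups of 5 libraries 1 library lay far from the others, where chance gives about 1 in 20 groups. Rgs10 in WT mouse 3 at 0 h was 634 CPM, where the other WT libraries had 140 to 200 CPM. Rgs10 in KO mouse 5 at 2 h was 175 CPM, against 223 to 240 CPM. Rgs2 in KO mouse 1 at 12 h was 66.8 CPM, against 56.3 to 58.3 CPM. KO mouse 5 had Rgs18 at 1.74 CPM at 6 h, against 0.315 to 0.68 CPM, and at 0.989 CPM at 12 h, against 0.176 to 0.233 CPM. The same mouse had Rgs19 at 94.7 CPM at 6 h, against 113 to 120 CPM, and at 111 CPM at 12 h, against 123 to 126 CPM. The change of Rgs2 from 0 to 12 h differed between genotypes, by -1.17 on the log2 scale in KO minus WT mice, by the interaction test.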

How the results depend on the processing

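Over 57 called member changes, the settings other than leaving out a mouse gave 512 values, of which 492 kept direction and call, 20 lost the call and 0 reversed. Leaving out 1 mouse at a time gave 570 values, with 42 calls lost and 0 reversed. Called member changes per family, leaving out 1 mouse each, ran from 17 to 24 for WT times against 0 h (20 with all mice), from 17 to 21 for KO times (20), from 4 to 8 for WT steps (5), from 5 to 9 for KO steps (6), from 2 to 6 for KO against WT (5) and from 1 to 5 for the difference of changes (1). Without WT mice 1 and 4 there were 12 WT steps, 11 KO steps and 6 differences. Also without the 0 h library of WT mouse 3, an alternative added after seeing the data, there were 14 WT steps and 14 KO steps. That fit gave 8 calls of KO against WT and 7 differences. Leaving out that library alone gave 4 differences. Calls among all genes became more frequent as well once WT mice 1 and 4 were left out. The 12 h difference was then called for 20.5% of all genes, beside 7.5% with all mice. For the 12 to 24 h step, 4823 genes were called in WT mice (2008 with all mice) and 4165 in KO mice (1331). The larger member counts alone do not show a gain particular to the members. With only the groups compared in the fit there were 17 KO steps, 3 calls of KO against WT and 0 differences. DESeq2 gave 4 differences and library totals 4. With the mouse as a replicate block there were 10 KO steps and 7 differences (fixed) and 3 differences (random). The replicate number as a block left KO against WT at 5. Shares of all genes called are not given here for these settings, nor for those without the 0 h library of WT mouse 3. Their member counts alone do not show a gain or loss particular to the members. The causes were not tested. The read counts of Rgs18, and of Rgs16 at 0 h, limit their folds.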
